A study of Mus musculus with 12 samples.

Results

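The genes described here are 33 genes by which T and B lymphocytes are recognized, 22 for T cells and 11 for B cells. They were taken by gene symbol from a count table of 52550 genes, and all 33 were found in it. Their expression was measured by bulk RNA sequencing of 12 whole lungs taken from mice at postnatal day 5. Each mouse gave 1 library, and each of the 4 groups held 3 mice. The groups were wild-type mice given phosphate-buffered saline (WT PBS, replicates 3, 4 and 5), wild-type mice given lipopolysaccharide (WT LPS, replicates 9, 10 and 11), Adm+/- mice given saline (Adm+/- PBS, replicates 6, 7 and 8) and Adm+/- mice given lipopolysaccharide (Adm+/- LPS, replicates 1, 2 and 12). Adm+/- mice carry 1 functional copy of the adrenomedullin gene in every cell, and all 12 mice were on a C57Bl/6J background. Lipopolysaccharide (LPS) is an endotoxin from the wall of Gram-negative bacteria, here from E. coli, and 6 mg/kg was injected into the peritoneum on 3 successive days, with the lungs taken 6 h after the last dose. The comparisons ask how the lymphocyte genes of the newborn lung differ after endotoxin, and whether that response differs when adrenomedullin is reduced.

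T cells recognize antigen through a receptor whose signaling chains belong to the CD3 complex. Binding brings the kinases LCK and ZAP70 and the adaptor LAT to the receptor, while CD4 or CD8 fixes which class of antigen-presenting molecule is read. B cells use membrane immunoglobulin in the same way, with CD79A and CD79B as the signaling chains and PAX5 and EBF1 as the factors that set and hold the B cell identity. In the newborn lung both lineages are sparse, and they build up in the first weeks after birth.

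Values are CPM, read counts scaled to the size of the library with edgeR's TMM factors, and are given for each group in order of replicate number. A gene was called changed at a Benjamini-Hochberg adjusted p below 0.05, taken over 15885 protein-coding genes, and an absolute log2 fold change above 0.5. All members but Rag2 passed the filter on low counts, which left 21 T genes and 11 B genes in the tests. Total counts per library lay between 22382535 and 38062873, and all members together took 3592 to 8294 counts of a library. WT PBS replicate 5 and Adm+/- PBS replicate 6 stood apart, with 16.6% and 13.3% of counts on the noncoding gene Gm26917, a share of 5.42% to 7.40% in the other 10 libraries. Adm itself stood at 3.96 to 8.15 CPM in the 6 WT lungs and at 2.87 to 6.28 CPM in the 6 Adm+/- lungs, and its fitted difference between genotypes was -0.50 in PBS (adjusted p = 0.999) and -0.55 in LPS (adjusted p = 0.480). The Adm counts of the genotypes thus overlapped, and they did not separate the labels. In a whole-lung library, fewer cells of a type and less RNA per cell cannot be told apart.

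Levels can be compared between genes only after division by length, here as CPM per kilobase of exon. In the WT PBS lungs Tcf7, a transcription factor of early T cells, was highest at 15.0 ± 3.65 CPM per kb (SD, n = 3). Camk4, a calcium-dependent kinase, followed at 7.54 ± 1.02, then the B cell receptor chain Cd79b at 6.29 ± 2.71, and Ebf1 at 4.45 ± 0.0591 CPM per kb. The intervals of Camk4 and Cd79b overlapped, as did those of Cd79b and Ebf1. Cd79a stood at 3.72 ± 1.13, Ralgps2 at 3.39 ± 0.780 and Gata3 at 2.73 ± 0.399 CPM per kb, which do not differ beyond their spread. The lineage-defining T genes lay far below, with Cd3d at 1.22 ± 0.0804, Cd4 at 0.609 ± 0.0195, Cd8a at 0.550 ± 0.173, Cd3g at 0.444 ± 0.135 and Cd3e at 0.412 ± 0.226 CPM per kb. Lowest were Rag1 at 0.188 ± 0.146 and Cd28 at 0.139 ± 0.0333 CPM per kb among the tested genes, and Rag2 below both.

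Ebf1 is also a gene of pericytes and fibroblasts. The 14 markers of those cells summed to 17496, 18431 and 46320 CPM in the WT PBS lungs, with replicate 5 highest. In Adm+/- PBS lungs they summed to 30532 CPM in replicate 6 and to 18208 and 17132 CPM in replicates 7 and 8. Replicates 5 and 6 are the libraries that stand apart. Gata3 and Il7r are also used by innate lymphoid cells, whose 12 marker genes, Gata3 among them, summed to 92.0 to 120.2 CPM in the WT PBS lungs. The part of those cells in the levels of Ebf1, Gata3, Il7r, Tcf7 and Camk4 was not tested. Of the markers of developing lymphocytes, 8 of 12 thymocyte genes and 5 of 10 pro-B and pre-B genes passed the filter on low counts, and the thymocyte list summed to 166.2 to 277.2 CPM over the 12 lungs, of which Tcf12, a factor of many tissues, made up 131.6 to 231.0 CPM. Rag1, a member that stands on both lists, reached 2.17 CPM in WT PBS replicate 3. The pro-B and pre-B list summed to 854.6 to 1334 CPM over the 12 lungs, of which Rag1 made up at most 2.17 CPM and Il7r at most 8.32 CPM. The following markers were near 0. In no library did Ptcra, the pre-T cell receptor chain, exceed 3 counts, nor did Igll1, of the pre-B cell receptor, exceed 9. Foxn1 and Psmb11, which define thymic epithelium, reached at most 10 and 5 counts.

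The genes called in any comparison are placed on mm10 by Gencode release M21. Cd3d (ENSMUSG00000032094) spans chr9:44981786-44987339, Cd6 chr19:10789341-10830058, Cd27 chr6:125232622-125237010, Lck chr4:129548344-129573641 and Il7r chr15:9505788-9530176. Bcl11b spans chr12:107910403-108003602, Gata3 chr2:9857078-9890034, Camk4 chr18:32934931-33191228 and Ralgps2 chr1:156804166-156939626. Exon bases are shared with another annotated gene by 10 of the 22 T genes and 2 of the 11 B genes. The library kit keeps strand, but the strand option of the counting is not given in the sources used here, so reads of such pairs may have been split or lost.

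**Figure D1:**
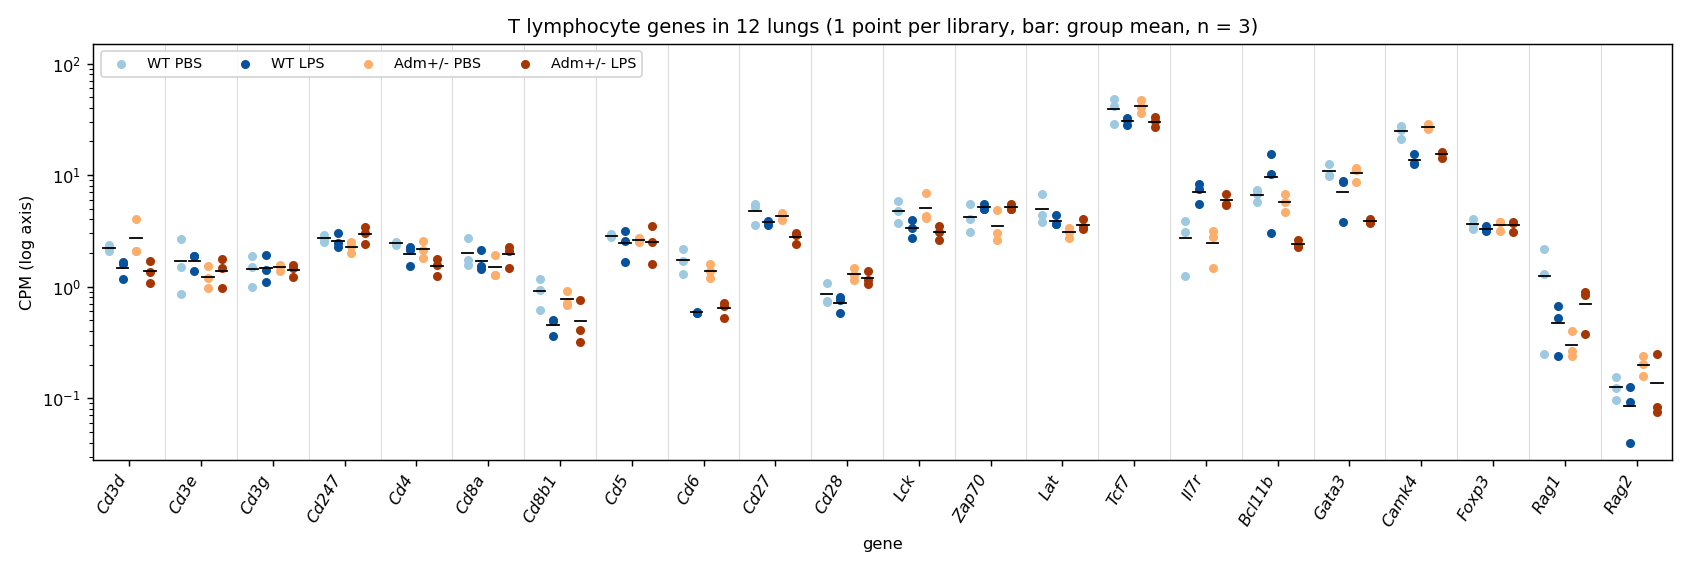
CPM of the 22 T lymphocyte genes (log axis) in each of the 12 libraries, with the bar at the mean of 3 mice. Tcf7 and Camk4 have the highest group means, the CD3 chains between 0.865 and 4.0 CPM, and Cd6 and Camk4 are lower in all LPS lungs than in any PBS lung of the same genotype.

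In WT mice 2 of the 21 tested T genes fell after LPS, Cd6 and Camk4, and Il7r rose. Over all protein-coding genes 7.09% were called lower and 10.5% higher in that comparison. In Adm+/- mice 7 T genes fell (Cd3d, Cd6, Cd27, Lck, Bcl11b, Gata3 and Camk4), against 12.2% of all genes, and Il7r again rose, against 12.8%. The median log2 fold change of the T genes was -0.31 in WT mice and -0.13 in Adm+/- mice, where the median over all genes tested was 0.0091 and -0.013. Of the 21 genes, 13 had a fitted change below 0 in both genotypes, 2 above 0 in both, and 6 differed in sign. Neutrophil genes moved in the same comparisons, from a sum of 75.9 to 260.0 CPM in PBS to 2296 to 4073 CPM in LPS lungs, and 13 and 12 of 16 monocyte and macrophage genes were called higher in WT and Adm+/- mice, and their part in the T and B gene values was not tested. By the ranges of CPM alone, 6 T genes were lower in all WT LPS lungs than in all WT PBS lungs (17.9% of all genes were) and 1 was higher (18.3%). In Adm+/- mice 9 T genes were lower without overlap (27.1% of all genes) and 2 were higher (26.6%). No T gene passed the threshold for a difference between the genotypes in the LPS response, a test in which 0.145% of all genes were called lower and 0% higher. In that test 2 T genes had an unadjusted p below 0.05, with 1247 genes in all, and DESeq2 and limma-voom also called 0 T genes.

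Of the CD3 chains Cd3d alone was called, and only in Adm+/- mice. Cd3d stood at 2.37, 2.09 and 2.16 CPM in WT PBS and at 1.17, 1.58 and 1.67 CPM in WT LPS lungs. The Adm+/- values were 4.0, 2.09 and 2.11 CPM after PBS and 1.08, 1.34 and 1.71 CPM after LPS. The groups did not overlap in either genotype, and the highest value was that of Adm+/- PBS replicate 6, a library that stands apart. Cd3d was lower after LPS in Adm+/- mice (log2 fold change -0.97, SE 0.29, adjusted p = 0.0271), and its change in WT mice was -0.59 (SE 0.30, adjusted p = 0.172). The call in Adm+/- mice was lost without Adm+/- PBS replicate 6, Adm+/- LPS replicate 1 or Adm+/- LPS replicate 2, with an adjusted p of up to 0.120. Cd3e, which is needed for any T cell receptor at the surface, stood at 2.68, 1.5 and 0.865 CPM in WT PBS and at 1.88, 1.37 and 1.87 CPM in WT LPS lungs. Those of Adm+/- mice were 1.53, 0.980 and 1.19 CPM after PBS and 1.76, 0.964 and 1.46 CPM after LPS. These groups overlapped, and the fitted changes of Cd3e were -0.0056 and 0.20 with 95% intervals of -0.81 to 0.80 and -0.64 to 1.03. The change of Cd3g was bounded by -0.52 and 0.52 in WT mice and by -0.69 and 0.51 in Adm+/- mice. Cd247, the zeta chain, had fitted changes of -0.062 and 0.38, and 3007 of its exon bases are shared with Pou2f1 on the other strand.

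Cd3d and Cd3g lie head to head on chromosome 9 of mm10, with starts 1355 bases apart, and their promoters are shown because the neighbors differed in whether they passed the test. The windows are from RefSeq on GRCm38.p6 and run from 250 bases before the start of the gene to 50 bases after it. Capitals mark CTTTGA, the core letters bound by the T cell factor TCF1, on either strand, here 1 match on each strand in Cd3d and none in Cd3g. The Cd3d window is chr9:44981536-44981835 on the plus strand, and the Cd3g window is chr9:44980382-44980681 on the minus strand.
Cd3d: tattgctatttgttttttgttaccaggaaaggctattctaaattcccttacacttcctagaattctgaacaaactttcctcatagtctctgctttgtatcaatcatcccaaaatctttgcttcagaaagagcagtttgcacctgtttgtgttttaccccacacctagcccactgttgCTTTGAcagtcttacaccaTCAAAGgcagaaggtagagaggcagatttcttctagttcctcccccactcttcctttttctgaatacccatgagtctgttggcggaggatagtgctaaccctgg
Cd3g: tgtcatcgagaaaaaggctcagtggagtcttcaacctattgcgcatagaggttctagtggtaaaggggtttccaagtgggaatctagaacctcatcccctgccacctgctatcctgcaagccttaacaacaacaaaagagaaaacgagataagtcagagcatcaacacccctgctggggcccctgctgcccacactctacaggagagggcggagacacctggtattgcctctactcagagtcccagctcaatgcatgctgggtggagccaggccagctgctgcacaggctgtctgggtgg
The RefSeq table holds 22 windows for 17 of the T genes and 10 windows for 8 of the B genes. These letters stood in 5 of the T windows (Bcl11b, Cd247, Cd27, Cd3d and Zap70), in 1 of the B windows (Ebf1) and in 16% of all 32851 windows. Of the T genes called lower in Adm+/- mice, Bcl11b, Cd27 and Cd3d had these letters. Lck and Gata3, also called lower, had windows without them, and Camk4 and Cd6 had no window. Cd247 and Zap70 had the letters and were not called. Whether the letters bear on these changes was not tested.

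The co-receptors did not pass the test in any comparison. Cd4 stood at 2.37, 2.52 and 2.47 CPM in WT PBS and at 1.54, 2.29 and 2.11 CPM in WT LPS lungs. Adm+/- mice had Cd4 values of 1.79, 2.13 and 2.54 CPM after PBS and 1.57, 1.76 and 1.25 CPM after LPS. The LPS lungs lay below the PBS lungs without overlap in both genotypes, and the fitted changes of Cd4 were -0.31 (SE 0.22, adjusted p = 0.332) and -0.50 (SE 0.23, adjusted p = 0.115). Cd8a, which together with Cd8b1 marks cytotoxic T cells, stood at 2.72, 1.55 and 1.73 CPM in WT PBS, 2.13, 1.54 and 1.43 CPM in WT LPS, 1.26, 1.93 and 1.27 CPM in Adm+/- PBS and 2.28, 2.09 and 1.46 CPM in Adm+/- LPS lungs. All 4 groups of Cd8a overlapped. Its fitted changes were -0.24 in WT and 0.37 in Adm+/- mice, neither past the threshold. Cd8b1, counted at 9 to 24 reads a library, had fitted changes of -1.01 (adjusted p = 0.0698) and -0.65 (adjusted p = 0.201).

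Among the surface regulators, Cd6 fell in both genotypes. Cd6 encodes a receptor that tunes the strength of T cell activation. It stood at 1.71, 1.31 and 2.16 CPM in WT PBS and at 0.586, 0.582 and 0.597 CPM in WT LPS lungs, a log2 fold change of -1.54 (SE 0.26, adjusted p = 0.00248). The Adm+/- lungs gave 1.37, 1.59 and 1.19 CPM after PBS and 0.524, 0.712 and 0.677 CPM after LPS, a log2 fold change of -1.12 (SE 0.26, adjusted p = 0.00766). No LPS lung reached the level of any PBS lung, and both calls held in all 12 fits that left out 1 library. Cd5, a relative of Cd6, ranged from 1.6 to 3.48 CPM over the 12 lungs with fitted changes of -0.21 and -0.057. The costimulatory receptor Cd27 stood at 5.16, 3.54 and 5.50 CPM in WT PBS and at 3.61, 3.91 and 3.82 CPM in WT LPS lungs, which overlapped. Cd27 in Adm+/- mice stood at 3.95, 4.36 and 4.57 CPM after PBS and at 2.88, 3.02 and 2.39 CPM after LPS, and these groups did not overlap. It was called lower in Adm+/- mice (log2 fold change -0.64, SE 0.19, adjusted p = 0.0252) and had a change of -0.32 (SE 0.19, adjusted p = 0.231) in WT mice. The call was lost without Adm+/- PBS replicates 7 or 8 or Adm+/- LPS replicates 1 or 12, with an adjusted p of up to 0.0993. Cd28, the main costimulatory receptor, had fitted changes of -0.27 and -0.13 after LPS.

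Il7r, the receptor through which interleukin 7 keeps T cells and innate lymphoid cells alive, was the only T gene called higher. It stood at 3.07, 3.88 and 1.24 CPM in WT PBS and at 8.32, 5.49 and 7.49 CPM in WT LPS lungs. For Adm+/- mice the values were 1.47, 2.80 and 3.14 CPM after PBS and 6.77, 5.45 and 5.56 CPM after LPS. Each LPS lung lay above every PBS lung, and the lowest values were those of WT PBS replicate 5 and Adm+/- PBS replicate 6, the libraries that stand apart. The log2 fold change of Il7r was 1.36 in WT mice (SE 0.36, adjusted p = 0.0214) and 1.24 in Adm+/- mice (SE 0.36, adjusted p = 0.0221). The call was lost in WT mice without WT LPS replicate 9 (adjusted p = 0.0864), and in Adm+/- mice without Adm+/- PBS replicate 6 or Adm+/- LPS replicate 1 (adjusted p up to 0.0793).

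Of the signaling genes, Camk4 fell in both genotypes and Lck in Adm+/- mice. Camk4 stood at 27.3, 25.6 and 20.9 CPM in WT PBS and at 12.7, 15.5 and 12.9 CPM in WT LPS lungs (log2 fold change -0.85, SE 0.13, adjusted p = 0.00154). Camk4 in Adm+/- mice stood at 26.3, 26 and 29.0 CPM after PBS and at 16.1, 15.9 and 14.3 CPM after LPS (log2 fold change -0.81, SE 0.13, adjusted p = 0.000941). The groups were far apart in both genotypes and all 12 fits without 1 library kept both calls. Lck, the kinase that starts T cell receptor signaling, stood at 4.74, 3.69 and 5.87 CPM in WT PBS, at 3.36, 3.95 and 2.75 CPM in WT LPS, at 6.89, 4.32 and 4.10 CPM in Adm+/- PBS and at 3.10, 3.52 and 2.60 CPM in Adm+/- LPS lungs. Lck overlapped between the WT groups and not between the Adm+/- groups, and its highest value was in Adm+/- PBS replicate 6. Its log2 fold change was -0.72 in Adm+/- mice (SE 0.25, adjusted p = 0.0483) and -0.50 in WT mice (SE 0.25, adjusted p = 0.173). That call of Lck was kept only without WT PBS replicate 4, WT PBS replicate 5 or Adm+/- PBS replicate 8, and was lost without any of the other 9 libraries, with an adjusted p of up to 0.196. It was also lost in 8 of 11 other alternatives, limma-voom (adjusted p = 0.0577) and RLE factors (adjusted p = 0.0519) among them. Zap70, the kinase that LCK activates, had fitted changes of 0.28 and 0.56, and was called in Adm+/- mice without Adm+/- PBS replicate 6 (log2 fold change 0.85, adjusted p = 0.0251). Lat, the adaptor that ZAP70 phosphorylates, had fitted changes of -0.35 and 0.22.

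Of the transcription factors, Gata3 and Bcl11b fell in Adm+/- mice. Gata3 directs T helper 2 cells and type 2 innate lymphoid cells. It stood at 12.7, 10.1 and 9.82 CPM in WT PBS and at 3.82, 8.77 and 8.68 CPM in WT LPS lungs. The Adm+/- values of Gata3 were 8.73, 11 and 11.5 CPM after PBS and 3.74, 3.81 and 4.06 CPM after LPS. The LPS lungs lay below the PBS lungs without overlap in both genotypes, and of the WT LPS lungs replicate 9 was as low as the Adm+/- LPS lungs. The log2 fold change of Gata3 was -1.43 in Adm+/- mice (SE 0.27, adjusted p = 0.00254), held in all 12 fits without 1 library, and was -0.62 in WT mice (SE 0.27, adjusted p = 0.114). Tcf7 ranged from 28.4 to 32.7 CPM in WT LPS and from 26.8 to 33.1 CPM in Adm+/- LPS lungs, against 28.9 to 47.7 and 36.4 to 47.5 CPM in the PBS lungs, with fitted changes of -0.36 (adjusted p = 0.150) and -0.46 (adjusted p = 0.0612). Without WT PBS replicate 5, the change of Tcf7 in WT mice was -0.55 and was called (adjusted p = 0.0209). Foxp3, the factor of regulatory T cells, stood at 3.26, 3.54 and 4.02 CPM in WT PBS, 3.24, 3.16 and 3.5 CPM in WT LPS, 3.16, 3.82 and 3.78 CPM in Adm+/- PBS and 3.81, 3.10 and 3.71 CPM in Adm+/- LPS lungs. Its groups overlapped throughout, with intervals of -0.49 to 0.24 in WT and -0.38 to 0.34 in Adm+/- mice. Exons of Foxp3 overlap 4 other genes, sharing at most 853 bases with any of them.

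Bcl11b, a factor that commits cells to the T lineage and is also expressed in epidermis, had uneven values. It stood at 6.76, 5.78 and 7.35 CPM in WT PBS and at 15.5, 3.04 and 10.3 CPM in WT LPS lungs. Adm+/- mice had values of 6.73, 4.63 and 5.77 CPM after PBS and 2.62, 2.30 and 2.28 CPM after LPS. WT LPS replicates 9 and 11 were the highest of all lungs, and replicate 10 was close to the Adm+/- LPS lungs. Bcl11b was called lower after LPS in Adm+/- mice (log2 fold change -1.24, SE 0.44, adjusted p = 0.0497), and had a change of 0.55 in WT mice (SE 0.41, adjusted p = 0.361). It was also the only T gene called between the genotypes in LPS (log2 fold change -2.01, SE 0.44, adjusted p = 0.0400). Its difference between genotypes in the LPS response was -1.79 (SE 0.60, adjusted p = 0.447). A list of 11 squamous epithelium genes, written after the values had been seen, was highest in the same 2 libraries as Bcl11b. Those genes summed to 3555 and 1803 CPM in WT LPS replicates 9 and 11, to 34.5 CPM in replicate 10, to 7.77 to 49.5 CPM in the Adm+/- LPS lungs and to 3.79 to 13.8 CPM in the 6 PBS lungs. In WT LPS replicate 10 that sum lay above the WT PBS lungs and Bcl11b lay below them. The part of squamous epithelium in the Bcl11b values was not tested. Of the fits without 1 library, the call between genotypes in LPS was kept without WT PBS replicates 4 or 5 or WT LPS replicate 10 and lost in the other 9, with an adjusted p of up to 0.179. That call was also lost by limma-voom, with only the libraries compared, tested against a log2 fold change of 0.5 and with the skeletal muscle covariate. The call in Adm+/- mice was kept without WT PBS replicate 5 or WT LPS replicates 9 or 10 and lost in the other 9, with an adjusted p of up to 0.130, and it was lost in 7 of 11 other alternatives, limma-voom (adjusted p = 0.124) and RLE factors (adjusted p = 0.0524) among them. Without WT LPS replicate 10, the change in WT mice was 0.96 (adjusted p = 0.0127) and the difference between genotypes in the response was -2.21 (adjusted p = 0.0145).

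**Figure D2:**
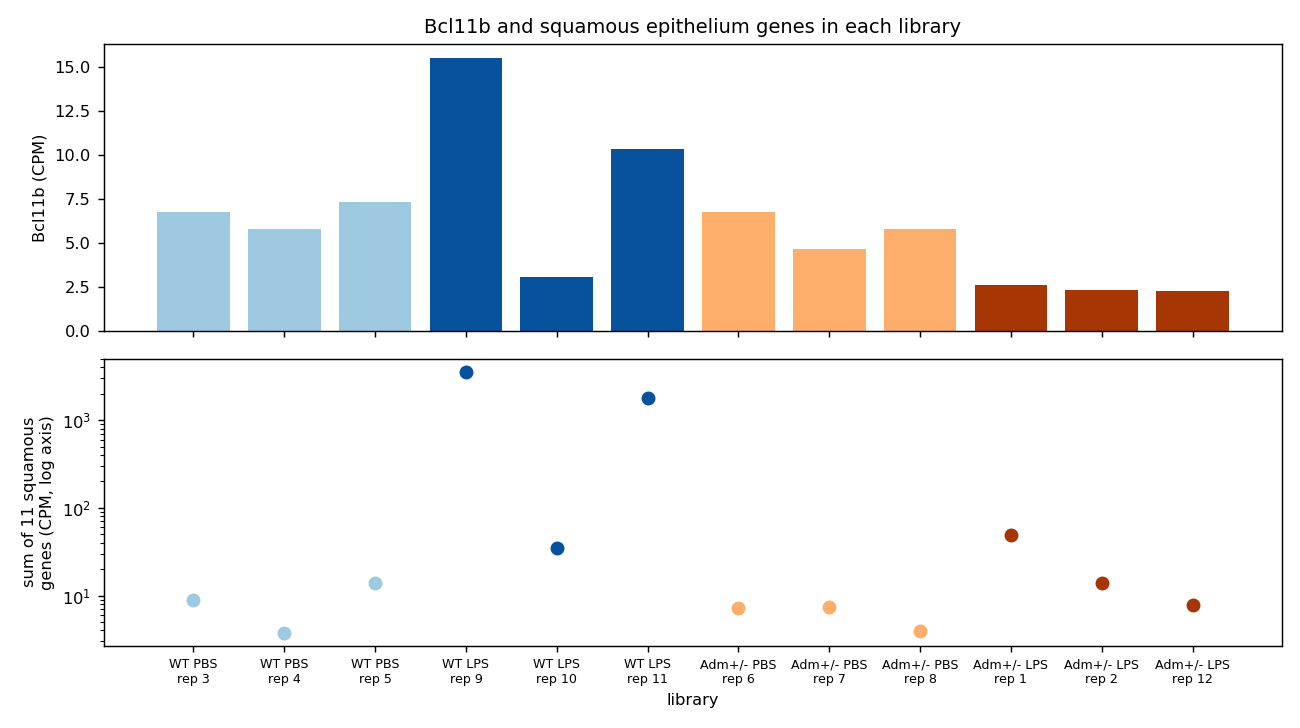
Upper panel, Bcl11b in CPM in each library. Lower panel, the sum of 11 squamous epithelium genes in CPM on a log axis in the same libraries. WT LPS replicates 9 and 11 are highest in both panels, at 15.5 and 10.3 CPM for Bcl11b.

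Rag1 and Rag2 encode the recombinase that assembles antigen receptor genes in immature T and B cells. Rag1 stood at 2.17, 1.31 and 0.247 CPM in WT PBS, 0.524, 0.665 and 0.239 CPM in WT LPS, 0.263, 0.237 and 0.398 CPM in Adm+/- PBS and 0.374, 0.838 and 0.891 CPM in Adm+/- LPS lungs. The groups overlapped, and WT PBS replicates 3 and 4 were the highest libraries. In WT PBS replicate 3 Dntt, another gene of immature lymphocytes, was also highest, at 0.388 CPM. The fitted changes of Rag1 were -1.42 in WT mice (SE 0.61, adjusted p = 0.113) and 1.21 in Adm+/- mice (SE 0.68, adjusted p = 0.196), and without WT PBS replicate 5 the change in WT mice was called (-1.87, adjusted p = 0.0203). Rag2 had at most 7 counts in a library and was not tested.

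**Figure D3:**
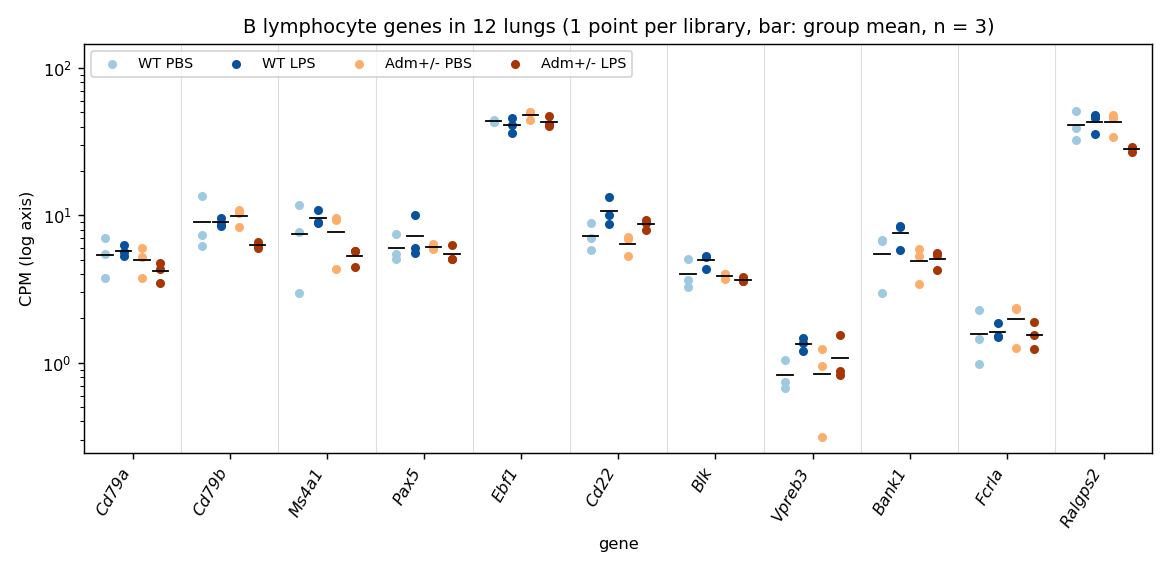
CPM of the 11 B lymphocyte genes (log axis) in each of the 12 libraries, with the bar at the mean of 3 mice. PBS and LPS lungs of the same genotype overlap for most genes, Ralgps2 is lowest in the Adm+/- LPS lungs, and Ms4a1 is at 2.97 CPM in WT PBS replicate 5.

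No B gene passed the threshold after LPS in WT mice. Cd22 had an unadjusted p below 0.05 there, with 5830 genes in all. It was the 1 B gene called by DESeq2, while limma-voom called 0. In Adm+/- mice 1 of 11 B genes was called lower, Ralgps2, where 12.2% of all genes were, and no B gene higher, where 12.8% were. In WT mice the shares of all genes were 7.09% lower and 10.5% higher. The median log2 fold change of the 11 genes was 0.27 in WT and -0.17 in Adm+/- mice. Fitted changes were above 0 for 9 of 11 genes in WT mice and below 0 for 8 of 11 in Adm+/- mice. Without overlap between groups, 1 B gene was higher in WT LPS lungs (Vpreb3), 1 was higher in Adm+/- LPS lungs (Cd22) and 2 were lower in Adm+/- LPS lungs (Cd79b and Ralgps2), which are smaller shares than those of all genes. The libraries that stand apart were low in B genes. WT PBS replicate 5 had the lowest value of its group for 7 of 11 B genes and Adm+/- PBS replicate 6 for 10 of 11, and neither was highest for any.

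Neither receptor chain passed the test. Cd79a stood at 7.07, 5.44 and 3.77 CPM in WT PBS and at 6.32, 5.32 and 5.66 CPM in WT LPS lungs, and at 3.79, 5.24 and 5.96 CPM in Adm+/- PBS and 4.79, 4.32 and 3.49 CPM in Adm+/- LPS lungs. Its values overlapped between PBS and LPS in both genotypes, with fitted changes of 0.080 and -0.26. Cd79b stood at 13.4, 7.33 and 6.24 CPM in WT PBS, 8.51, 9.65 and 8.68 CPM in WT LPS, 8.31, 10.8 and 10.4 CPM in Adm+/- PBS and 6.28, 6.03 and 6.63 CPM in Adm+/- LPS lungs. The Adm+/- LPS lungs lay below all Adm+/- PBS lungs, with a fitted change of -0.64 (SE 0.24, adjusted p = 0.0656), and the WT change was -0.018. Cd79b was called in Adm+/- mice without WT PBS replicate 3 (adjusted p = 0.00779) and without WT PBS replicate 5 (adjusted p = 0.0287). It was also called by DESeq2 (adjusted p = 0.0410) and with only the libraries compared (adjusted p = 0.00849). Without the 2 PBS libraries that stand apart its change was -0.75 and was called (adjusted p = 0.0231).

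Ms4a1, which encodes the B cell surface protein CD20, stood at 11.8, 7.77 and 2.97 CPM in WT PBS and at 10.9, 8.90 and 8.96 CPM in WT LPS lungs. Its Adm+/- values were 4.31, 9.60 and 9.26 CPM after PBS and 5.76, 5.74 and 4.49 CPM after LPS. The lowest PBS lungs in each genotype were the libraries that stand apart, and the fitted changes were 0.33 (SE 0.40) and -0.54 (SE 0.41, adjusted p = 0.340). Without those 2 libraries the change of Ms4a1 in Adm+/- mice was -0.82 and was called (adjusted p = 0.0108). Cd22, an inhibitory receptor of B cells, ranged from 5.81 to 8.85 CPM in WT PBS, 8.72 to 13.3 CPM in WT LPS, 5.26 to 7.10 CPM in Adm+/- PBS and 7.95 to 9.35 CPM in Adm+/- LPS lungs. Its fitted changes were 0.56 (SE 0.20, adjusted p = 0.0699) and 0.44 (SE 0.20, adjusted p = 0.126), the former called without WT PBS replicate 3 (0.73, adjusted p = 0.0374) or WT LPS replicate 11 (0.68, adjusted p = 0.0495).

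Pax5 stood at 7.46, 5.10 and 5.44 CPM in WT PBS, 10.1, 5.53 and 6.01 CPM in WT LPS, 6.10, 5.95 and 6.36 CPM in Adm+/- PBS and 6.28, 5.03 and 5.02 CPM in Adm+/- LPS lungs. The single high value was that of WT LPS replicate 9, and the fitted changes of Pax5 were 0.27 and -0.17, neither past the threshold. Ebf1 stood at 43, 44.1 and 43.2 CPM in WT PBS, 41, 45.5 and 36.1 CPM in WT LPS, 44.4, 50.1 and 50.1 CPM in Adm+/- PBS and 47.0, 41.4 and 40.3 CPM in Adm+/- LPS lungs. It had the smallest standard error of the B genes, with intervals of -0.32 to 0.15 in WT and -0.40 to 0.069 in Adm+/- mice. Ralgps2, which encodes an exchange factor for Ral GTPases, stood at 51.2, 39.1 and 32.6 CPM in WT PBS and at 45.8, 35.7 and 48.1 CPM in WT LPS lungs. Ralgps2 in Adm+/- mice stood at 34, 48.0 and 46.0 CPM after PBS and at 28.9, 28.5 and 27.0 CPM after LPS. All 3 Adm+/- LPS lungs were below the other 9 lungs, with a log2 fold change of -0.60 in Adm+/- mice (SE 0.18, adjusted p = 0.0261) and 0.075 in WT mice. That call was lost without any 1 of the Adm+/- libraries other than PBS replicate 6, with an adjusted p of up to 0.0890. The part of cells other than B cells in the level of Ralgps2 was not tested. The other B genes were Blk (3.25 to 5.28 CPM over the 12 lungs), a SRC family kinase, Bank1 (2.97 to 8.48 CPM), a signaling scaffold, Fcrla (0.988 to 2.37 CPM) and Vpreb3 (0.316 to 1.53 CPM), and none of them passed the test in either genotype.

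**Figure D4:**
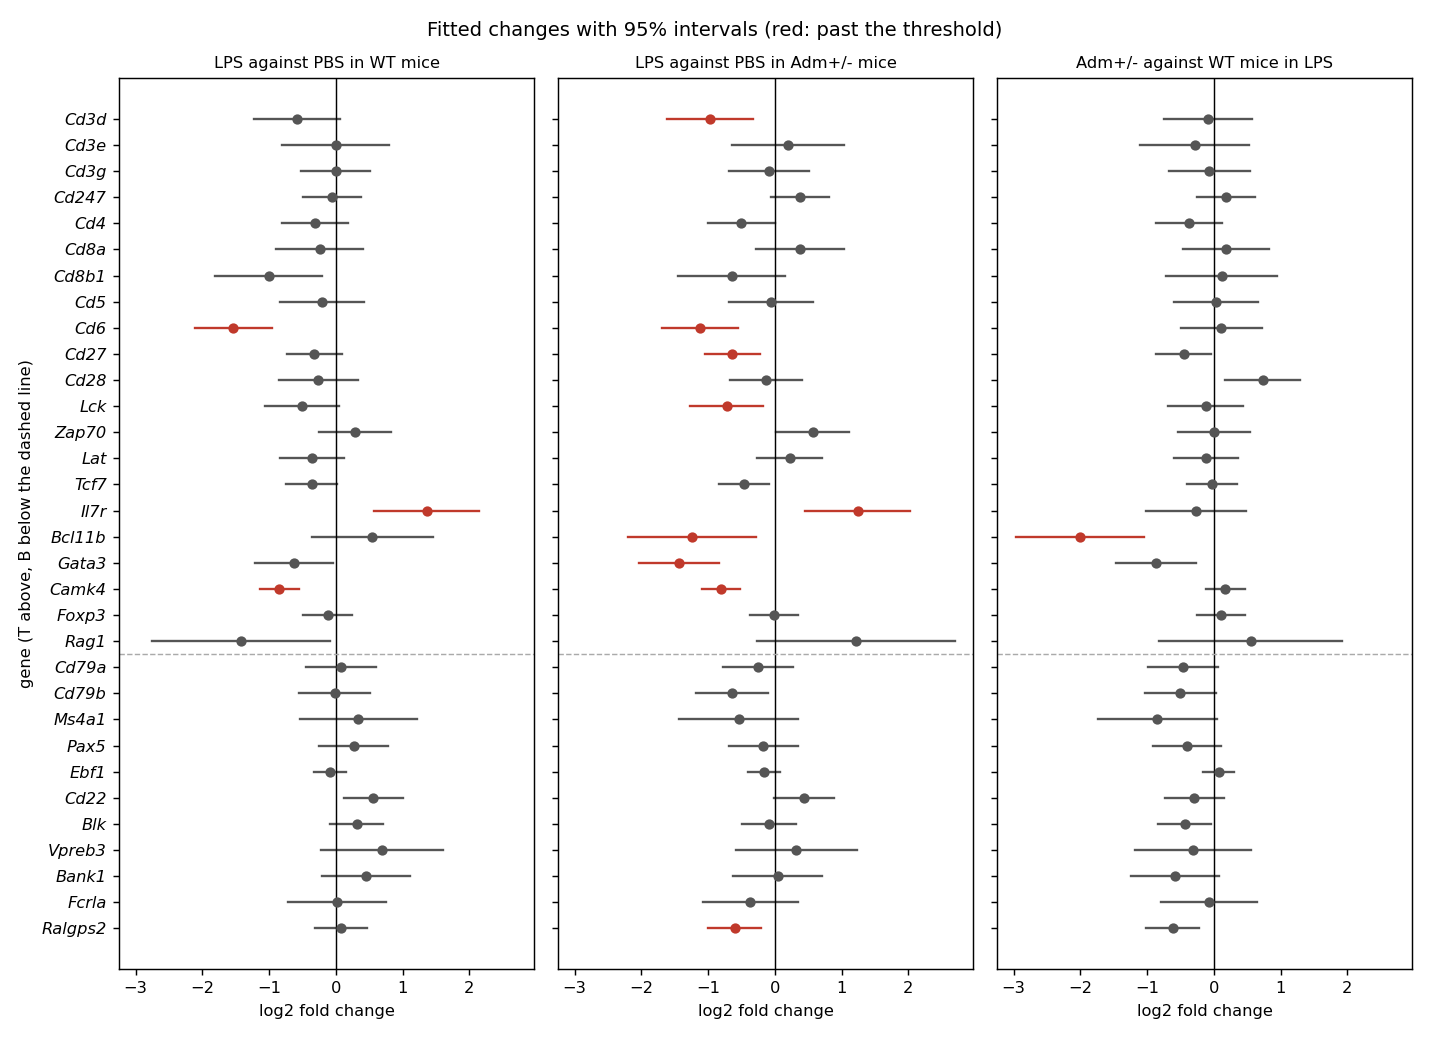
Fitted log2 fold changes with 95% intervals for the 32 tested genes, in WT mice, in Adm+/- mice and between genotypes in LPS. Points past the threshold are red, and Bcl11b (-2.01) is the only red point in the right panel.

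Between the genotypes in PBS, no T or B gene was called, as was no gene of the 15885 (0% in each direction), by edgeR, DESeq2 or limma-voom for the members. Unadjusted p below 0.05 was reached by 3 T genes and 0 B genes, with 344 genes in all. Lat was lower in Adm+/- than in WT lungs without overlap, 3.10, 2.74 and 3.38 CPM against 3.81, 4.42 and 6.80 CPM, a fitted difference of -0.70 (SE 0.22, adjusted p = 0.999). Without overlap, 3 T genes were lower in Adm+/- PBS lungs (2.51% of all genes) and 1 T gene and 1 B gene were higher (2.47% of all genes).

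Between the genotypes in LPS, 1 T gene was called lower, Bcl11b, and no B gene, where 1.72% of all genes were called lower and 0.327% higher. DESeq2 called 1 B gene lower, Ralgps2, and limma-voom called 0, and 2 B genes had an unadjusted p below 0.05, with 2275 genes in all. The B genes leaned to lower values in Adm+/- mice. Of the 11 genes, 10 had a fitted difference below 0, with a median of -0.44 where the median over all genes was -0.0042. In 6 of the 11 (Bank1, Blk, Cd79a, Cd79b, Ms4a1 and Ralgps2) all 3 Adm+/- LPS lungs lay below all 3 WT LPS lungs, and 12.4% of all genes did so. No B gene was higher without overlap (12.2% of all genes). Ralgps2 had a difference of -0.62 (SE 0.18, adjusted p = 0.107), Ms4a1 of -0.85 (SE 0.41, adjusted p = 0.379), Cd79b of -0.50 (SE 0.24, adjusted p = 0.389), Blk of -0.44 (SE 0.18, adjusted p = 0.290) and Cd79a of -0.46 (SE 0.24, adjusted p = 0.439). In the test of the LPS response itself, all 11 B genes had a fitted difference below 0, with a median of -0.40. No B gene was called by edgeR, DESeq2 or limma-voom, and 1 had an unadjusted p below 0.05, with 1247 genes in all. These genes share the same 3 lungs of each group and are not independent of each other. Genes of other cell types moved with the same comparison. Of 16 monocyte and macrophage genes, 13 had a fitted difference below 0, with a median of -0.42, and 0 were called. All 10 tested squamous epithelium genes were below 0, and 6 were called. All 12 tested skeletal muscle genes were called lower, and the 14 of the list summed to 2411 to 5396 CPM in WT LPS and 411.7 to 522.2 CPM in Adm+/- LPS lungs, and the part of these cell types in the B gene values was not tested.

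The T genes did not lean in this way. Their fitted differences between genotypes in LPS were above 0 for 10 and below 0 for 11 of 21 genes, with a median of -0.029, and 2 were lower without overlap (Bcl11b and Cd27). Cd28 was higher without overlap in Adm+/- lungs in PBS (1.16, 1.28 and 1.47 against 1.09, 0.728 and 0.741 CPM) and in LPS (1.38, 1.05 and 1.14 against 0.801, 0.582 and 0.757 CPM). Its differences were 0.60 (SE 0.26, adjusted p = 0.999) and 0.73 (SE 0.26, adjusted p = 0.195). Gata3 differed by -0.87 between the genotypes in LPS (SE 0.27, adjusted p = 0.139), a value that was -1.17 and called without WT LPS replicate 9 (adjusted p = 0.00722). DESeq2 also called Gata3 lower (-0.86, adjusted p = 0.0468). Cd27 differed by -0.45 (SE 0.19, adjusted p = 0.296).

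The other genes of the receptor pathways are read against all protein-coding genes, of which 10.5% were called higher and 7.09% lower in WT mice and 12.8% and 12.2% in Adm+/- mice. Of 23 tested genes of T receptor signaling, 6 rose and 1 fell in WT mice, and 7 rose and 4 fell in Adm+/- mice, with medians of 0.16 and 0.022 and 10 genes fitted below 0 in each genotype. The smallest p in WT mice belonged to Lcp2 (2.1, SE 0.21, adjusted p = 0.000129), Vav1 (1.87, SE 0.19, adjusted p = 0.000158) and Ptprc (1.44, SE 0.22, adjusted p = 0.00140), which many leukocytes use. Of 24 tested genes of B receptor signaling, 13 rose and 0 fell in WT mice, and 13 rose and 1 fell in Adm+/- mice, with medians of 0.75 and 0.56. Pou2f2 (2.40, SE 0.23), Fcgr2b (2.62, SE 0.34) and Syk (1.14, SE 0.16) led in WT mice, and the last 2 are well known in myeloid cells. Neutrophil and macrophage markers moved with these rises. Of 13 tested neutrophil genes 12 rose in WT and 13 in Adm+/- mice, beside the monocyte and macrophage genes already given. Their part in the receptor pathway values was not tested.

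**Figure D5:**
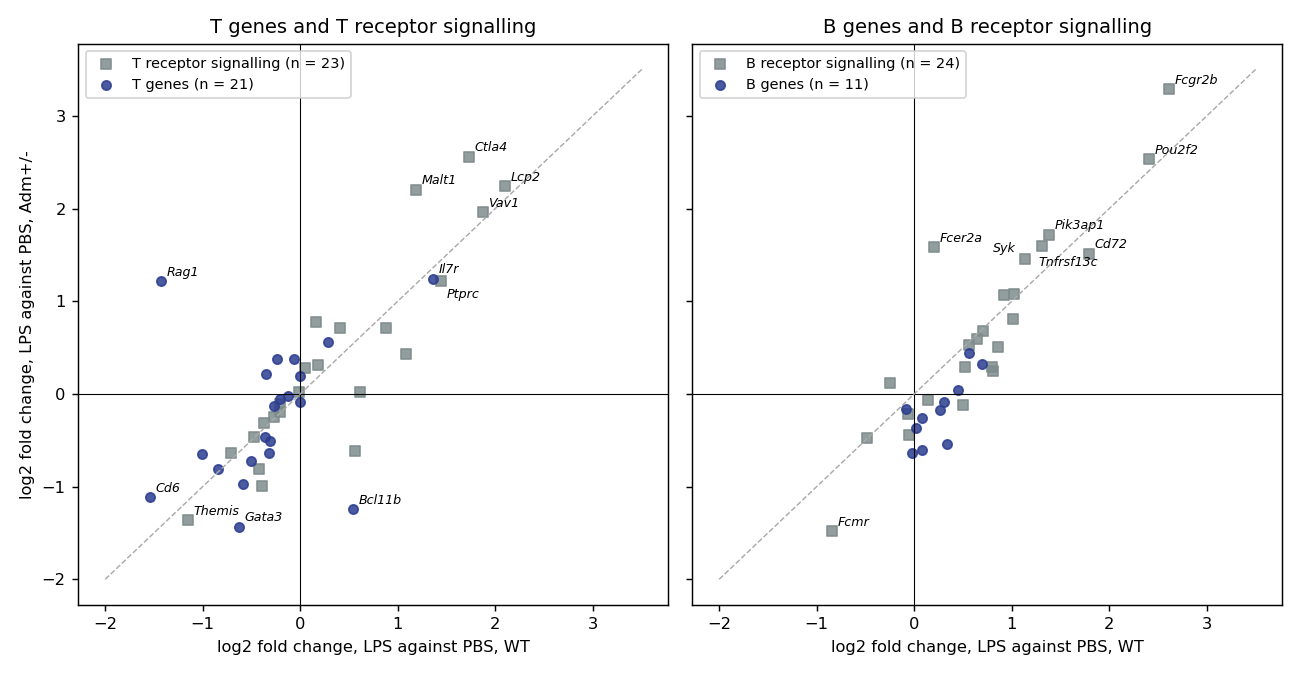
Log2 fold change after LPS, with WT mice on the horizontal and Adm+/- mice on the vertical axis, for the tested T and B genes (circles) and for the genes of the 2 receptor signaling lists (squares), with the line of equal change dashed. The B genes lie between -0.087 and 0.69 on the horizontal axis, 9 of 11 above 0, while Fcgr2b and Pou2f2 lie above 2 on both axes.

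In LPS, Fcer2a, the low-affinity IgE receptor of B cells, was the only gene of the B receptor list called between genotypes. It stood at 4.62, 3.24 and 2.15 CPM in WT LPS and at 10.2, 7.21 and 7.73 CPM in Adm+/- LPS lungs, a difference of 1.32 (SE 0.26, adjusted p = 0.0274), the opposite sign to that of Ms4a1 and Cd79b. Of the 23 tested genes of the T receptor list, 1 was called higher and 2 lower between genotypes in LPS, against 0.327% and 1.72% of all genes. Malt1 was higher (0.97, SE 0.20, adjusted p = 0.0345) and Nfatc2 was lower (-1.17, SE 0.26, adjusted p = 0.0458) in Adm+/- mice.

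The constant genes of the antigen receptors are not protein-coding in the annotation and were tested in a fit of all 23051 annotated genes that passed the filter. In that fit 13.2% of genes were called in either direction after LPS in the WT comparison and 21.6% in the Adm+/- comparison. Of 10 constant genes tested, 3 were called in WT mice (Ighm and Igkc higher, Trac lower) and 1 in Adm+/- mice (Igkc higher). For the difference between genotypes in the LPS response no constant gene was called. Its adjusted p was 0.678 for Trac, 0.807 for Ighm and 0.647 for Igkc. Trac, the constant gene of the T cell receptor alpha chain, stood at 2.34, 1.68 and 1.94 CPM in WT PBS and at 0.570, 1.3 and 0.573 CPM in WT LPS lungs, without overlap (log2 fold change -1.31, SE 0.35, adjusted p = 0.0288). Trac in Adm+/- mice stood at 1.18, 1.91 and 1.57 CPM after PBS and at 1.76, 1.41 and 0.953 CPM after LPS, with a change of -0.19 (SE 0.34, adjusted p = 0.732). The constant genes of the beta chain were not called, with changes of -0.60 (adjusted p = 0.126) and -0.50 (adjusted p = 0.161) for Trbc2 and of -0.69 (adjusted p = 0.140) and -0.026 (adjusted p = 0.964) for Trbc1. Trdc, of the delta chain, had fitted changes above 0 and was not called. Its change in WT mice was 0.68 (adjusted p = 0.382), and that in Adm+/- mice, where the groups did not overlap, was 1.33 (SE 0.51, adjusted p = 0.0779).

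Ighm and Igkc rose in WT mice. Ighm, the heavy chain of IgM, stood at 40.7, 31.8 and 29.4 CPM in WT PBS and at 73.4, 59.9 and 54.1 CPM in WT LPS lungs, a log2 fold change of 0.88 (SE 0.15, adjusted p = 0.00307). Ighm in Adm+/- mice stood at 28.2, 30.6 and 33.3 CPM after PBS and at 37.8, 45.2 and 45.3 CPM after LPS, a change of 0.48 that fell short of the fold threshold (SE 0.15, adjusted p = 0.0375). Igkc, the kappa light chain, rose by 1.36 in WT mice (SE 0.21, adjusted p = 0.00172) and by 0.63 in Adm+/- mice (SE 0.21, adjusted p = 0.0478). Both were lower in all Adm+/- LPS than in all WT LPS lungs, by fitted differences of -0.55 (adjusted p = 0.111) and -0.72 (adjusted p = 0.125). Jchain, which joins IgM into multimers, stood at 0.0338 to 0.210 CPM in the 6 PBS lungs and at 0.524 to 2.91 CPM in the 6 LPS lungs, with changes of 4.11 (SE 0.53, adjusted p = 0.000560) in WT and 3.17 (SE 0.55, adjusted p = 0.00137) in Adm+/- mice. Tnfrsf17, which marks plasma cells, had at most 4 counts in a library.

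Of 11 tested genes for lymphocyte homing, 3 were called higher in WT mice, where 10.5% of all genes were, and 2 higher and 1 lower in Adm+/- mice, where 12.8% and 12.2% were. Cxcl13, the chemokine that draws B cells into follicles, stood at 0.893, 0.971 and 0.432 CPM in WT PBS and at 7.74, 14.3 and 1.91 CPM in WT LPS lungs (log2 fold change 3.34, SE 0.61, adjusted p = 0.00378). Cxcl13 in Adm+/- mice stood at 0.368, 0.710 and 0.954 CPM after PBS and at 19.4, 20.5 and 17.3 CPM after LPS (log2 fold change 4.77, SE 0.63, adjusted p = 0.000281). The Adm+/- LPS lungs lay above all WT LPS lungs, and the difference of 1.26 did not pass (SE 0.50, adjusted p = 0.270). S1pr1, the receptor by which lymphocytes leave tissues and which endothelium also uses, rose in both genotypes (0.80, adjusted p = 0.0431, and 1.53, adjusted p = 0.00111).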

How the data were processed

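The authors trimmed reads of rRNA-depleted directional libraries with Trim Galore, used HISAT2 for alignment (mm10) and featureCounts for gene counts over Gencode models. The deposited values are raw counts for 52550 genes in 12 libraries, with no normalization. The Gencode release and the strand option are not given in the sources used here. Gene positions came from Gencode release M21, which holds 52403 of these genes, and promoters from RefSeq on GRCm38.p6.

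The 33 genes, the other gene lists and the tests were chosen with earlier results of these data known. Analyses were run in R 4.3.3. Protein-coding genes that passed filterByExpr (15885 of 21950) were tested by the quasi-likelihood test of edgeR 4.0.16 with TMM factors, 1 coefficient per group and 8 residual degrees of freedom, in 5 contrasts. DESeq2 1.42.0, limma-voom (limma 3.58.1), RLE factors, other filters, a fit of every annotated gene, only the libraries compared, a test against a log2 fold change of 0.5, a skeletal muscle covariate and fits without each library were alternatives. The code was tested on simulated data. Named genes were all members, in full where called or lineage-defining, and up to 3 called genes of each other list by smallest p, beside markers close to 0. Fcer2a, Jchain, S1pr1, Dntt, Trac, Trbc1, Trbc2, Trdc, Ighm and Igkc were named after their values were seen where that rule did not give them, and single values of some genes of the receptor signaling lists are not reported here. All 12 pairs of libraries within groups were checked by chi-square, and none agreed within sampling noise (9.67 to 110 per degree of freedom). Each library came from 1 mouse, and counts without molecular identifiers cover counting error only.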

Additional observations from a re-analysis of the deposited data

How the results depend on the processing

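No fitted value of a called gene changed direction under 11 alternatives or 12 fits without 1 library. Of 3637 member values under alternatives, 182 changed direction, none of them called, 79 lost a call and 23 gained one. Calls of Gata3 and Camk4 in Adm+/- mice held throughout, with adjusted p of up to 0.0170 and 0.0428. The calls of Cd6 and Camk4 in WT mice were lost only in 2 alternatives. With the skeletal muscle covariate, which separates WT LPS (5.88 to 7.29) from WT PBS lungs (0.300 to 1.42, mean log2 CPM) and so cannot be told apart from that comparison, the changes were -2.04 and -0.89. Without both squamous WT LPS libraries, added after the data were seen, they were -1.55 and -0.67, with 1 WT LPS library left that is assumed to vary like the other groups. That of Cd6 in Adm+/- mice was lost only when tested against a log2 fold change of 0.5 (adjusted p = 0.0511).

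The count of T genes called higher in WT mice (1) was 0 with only the libraries compared, tested against 0.5, with the muscle covariate and without the squamous libraries, and 0 to 2 in the fits without 1 library. T genes lower in WT mice (2) numbered 0 with the muscle covariate, 0 without the squamous libraries, 4 without the 2 outlying PBS libraries, and 2 to 4 without 1 library. B genes higher in WT mice (0) numbered 1 by DESeq2 and 0 to 1 without 1 library. In Adm+/- mice, T genes higher (1) numbered 0 against 0.5, 0 with the muscle covariate, 2 without the outlying PBS libraries and 0 to 1 without 1 library, and T genes lower (7) numbered 2 against 0.5, 4 with the muscle covariate, 5 each with RLE factors, by limma-voom, with no filter, over all annotated genes and without the outlying PBS libraries, 6 without the squamous libraries and 3 to 7 without 1 library. B genes lower in Adm+/- mice (1) numbered 2 by DESeq2, 2 with only the libraries compared, 0 against 0.5, 0 with the muscle covariate, 3 without the outlying PBS libraries and 0 to 2 without 1 library. For the difference between genotypes in the LPS response, T genes lower (0) numbered 0 to 1 without 1 library, the gene being Bcl11b. Between genotypes in LPS, T genes lower (1) numbered 2 by DESeq2, 0 by limma-voom, 0 with only the libraries compared, 0 against 0.5, 0 with the muscle covariate, 0 without the squamous libraries and 0 to 1 without 1 library, and B genes lower (0) numbered 1 by DESeq2 and 2 without the outlying PBS libraries, Ms4a1 and Ralgps2. The cause of these shifts was not tested.

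No paired analysis was possible because the replicate numbers are library numbers that no 2 groups share. With 3 mice in a group and counts as low as 4 in a library for Rag1 and 6 for Vpreb3, intervals of the scarce genes are wide.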

Other observations

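Other cell types that a lung library can hold were described by the same counts, against 10.5% of all genes called higher and 7.09% lower in WT mice and 12.8% and 12.2% in Adm+/- mice. Of 12 tested NK cell genes, 3 rose in WT and 5 in Adm+/- mice, led by Gzmb (3.80, SE 0.82, and 5.14, SE 0.84) and Gzma (1.55, SE 0.34, and 1.89, SE 0.34), and the 16 genes of that list summed to 9.54 to 11.9 CPM in PBS and 16.4 to 28.1 CPM in LPS lungs. Klra4, Klra7 and Klra8 of that list had at most 3 counts in a library, and Klre1 at most 9. Between the genotypes in LPS 0 of the 12 were called, against 1.72% of all genes lower and 0.327% higher. For the difference between genotypes in the LPS response 0 were called, against 0.145% lower and 0% higher. Gzmb and Prf1 are used by cytotoxic T cells as well, and the part of those cells in the values of Gzmb and Prf1 was not tested. Of 10 tested genes of type 2 innate lymphoid cells, 2 rose in WT mice and 4 rose and 1 fell in Adm+/- mice, the fall being that of Gata3. Among the rises in Adm+/- mice were Il5 (2.15, SE 0.74, adjusted p = 0.0454), Il1rl1 (0.75, SE 0.26, adjusted p = 0.0454) and Areg (0.80, SE 0.22, adjusted p = 0.0164), so Gata3 and these genes moved in opposite directions.

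Of 8 tested thymocyte genes, 1 rose and 1 fell in WT mice and 2 fell in Adm+/- mice, where Themis had a change of -1.36 (SE 0.43, adjusted p = 0.0342). Fezf2 rose in both genotypes in the thymic epithelium list, whose defining genes Foxn1 and Psmb11 were near 0, and 1 of 4 tested genes rose in WT and 2 in Adm+/- mice. Of 5 tested pro-B and pre-B genes, Il7r rose and Sox4 fell in both genotypes. Of 6 tested plasma cell genes, Jchain rose in both genotypes and Prdm1 fell in Adm+/- mice (-0.75, SE 0.13, adjusted p = 0.00173). Of 12 mitosis genes 2 fell in each genotype, and all 12 had a fitted change below 0 in both, with medians of -0.74 in WT and -0.60 in Adm+/- mice. Of 14 pericyte and fibroblast genes 1 rose and 2 fell in WT mice and 2 fell in Adm+/- mice. Of 12 tested skeletal muscle genes, 12 rose in WT mice and 1 in Adm+/- mice.

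Ctla4, an inhibitory receptor of activated and regulatory T cells, stood at 0 to 0.272 CPM in the 6 PBS lungs, at 0.279 to 0.832 CPM in the WT LPS lungs and at 0.819 to 1.09 CPM in the Adm+/- LPS lungs. Its log2 fold change was 1.73 in WT mice (SE 0.67, adjusted p = 0.0837) and 2.56 in Adm+/- mice (SE 0.63, adjusted p = 0.00992), and the difference between these was 0.83 (SE 0.97, adjusted p = 0.988). Foxp3 had an interval of -0.38 to 0.34 in Adm+/- mice. Ctla4 was named after its values were seen.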
